A study of Drosophila melanogaster with 2 samples.

Results

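The vacuolar ATPase (V-ATPase) genes of Drosophila melanogaster were examined here as targets of the product of CG4282 in embryos. They were taken as the protein-coding genes whose symbol in the Ensembl annotation begins with Vha, which gave 33 genes of 13986 protein-coding genes. The ChIP-seq data came from whole embryos of mixed sex aged 0 to 24 h, from 1 transgenic line that stably expresses the CG4282 protein with GFP at its C-terminus, and the precipitation used an antibody to GFP. There was 1 group of 2 libraries, numbered biological replicates 3 and 4, and no control library or untagged line was among the samples, so no condition could be set against another. Signal at the Vha promoters that an anti-GFP precipitation would give without the tagged protein was not measured here. All cell types of the embryo were mixed, so binding in a few cells and weak binding in many cannot be told apart.

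The V-ATPase is a rotary proton pump that acidifies lysosomes, endosomes and secretory vesicles, and in some epithelia it pumps protons across the plasma membrane. Its V1 part lies in the cytosol and hydrolyses ATP in a ring of A and B subunits, which turns a central shaft of D and F subunits. The turning shaft drives the ring of c and c'' proteolipids in the membrane part, V0, past the a subunit, which holds the proton half-channels. Subunits C, E, G and H hold the outer stator or regulate the pump, subunit d links shaft and ring, subunit e is a small membrane protein and Ac45 is an accessory protein. In flies several subunits have more than 1 gene, and the copies often differ in the tissues that use them. The transcription factor Mitf is known to activate V-ATPase genes in flies through the M-box, an E-box with flanking bases.

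The tagged protein was found at the promoters of 8 of the 33 genes, or 24.2%. A gene was called bound when a summit of the authors' optimal peak list lay within 500 bp of one of its transcription start sites (TSSs), and 11.4% of all protein-coding genes were bound by that rule. The bound genes were Vha68-1 (subunit A), Vha55 (B), Vha44 (C) and Vha36-1 (D) of V1, and Vha100-2 (a), Vha16-1 and Vha16-5 (c) and VhaM9.7-b (e) of V0. The genes of subunits E, F, G, H, c'' and d and of Ac45 had no optimal summit in that distance. Since the genes were chosen with such results known, the difference from the background is given as a description, without a test.

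The DNA under the strongest summits is shown for the genes whose position allows it, in dm6 coordinates with the strand of the V-ATPase gene. Capitals mark the bases of CGATA or of its reverse complement TATCG, the core that the insulator protein BEAF-32 is known to bind, and, at Vha55 and Vha68-2, the reverse complement CTCTC of the GAGA word GAGAG. Vha16-5 (chr2L:10737289-10737344, minus strand) and VhaM9.7-b (chr3L:21540101-21540152, plus strand) are cut to the bases outside annotated exons, while Vha55 (chr3R:12627893-12627993, minus strand) and Vha68-1 (chr2L:13004143-13004243, minus strand) show the summit with 50 bp on either side.
Vha16-5: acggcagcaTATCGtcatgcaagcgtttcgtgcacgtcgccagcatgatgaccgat
Vha55: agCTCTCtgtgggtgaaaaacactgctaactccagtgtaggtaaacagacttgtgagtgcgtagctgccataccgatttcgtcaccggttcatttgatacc
Vha68-1: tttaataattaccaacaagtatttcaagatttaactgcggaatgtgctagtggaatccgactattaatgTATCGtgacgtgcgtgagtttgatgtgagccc
VhaM9.7-b: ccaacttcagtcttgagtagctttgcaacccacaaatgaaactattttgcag
The unbound copy Vha68-2 (chr2L:12974149-12974249, plus strand) is shown beside its bound paralogue Vha68-1, as it holds the same core, and a GAGA word 15 bp from its pooled summit.
Vha68-2: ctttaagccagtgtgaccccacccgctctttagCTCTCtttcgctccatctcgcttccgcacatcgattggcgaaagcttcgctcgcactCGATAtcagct

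For each gene the highest deposited signal among summits within 500 bp of a TSS was taken from the list of both replicates pooled and from the list of each replicate. These lists hold 30000 peaks each, including background, and the optimal list consists of the 1985 pooled peaks with the highest signal. The signal is the authors' enrichment value, on a scale of its own in each list, so signals are compared within a list only. A pooled summit lay near 21 of the 33 genes (63.6%, against 51.4% of protein-coding genes). In the single replicates this held for 20 genes in replicate 3 and 22 in replicate 4. Of the 33 genes, 7 (21.2%) had no summit in any of the lists, against 37.4% of protein-coding genes. With genes without a summit placed lowest, the median pooled signal was 27.34 for the V-ATPase genes and 21.04 for all protein-coding genes. Among protein-coding genes with a pooled summit, the V-ATPase genes had a median percentile of 52.1, near the middle.

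**Figure D1:**
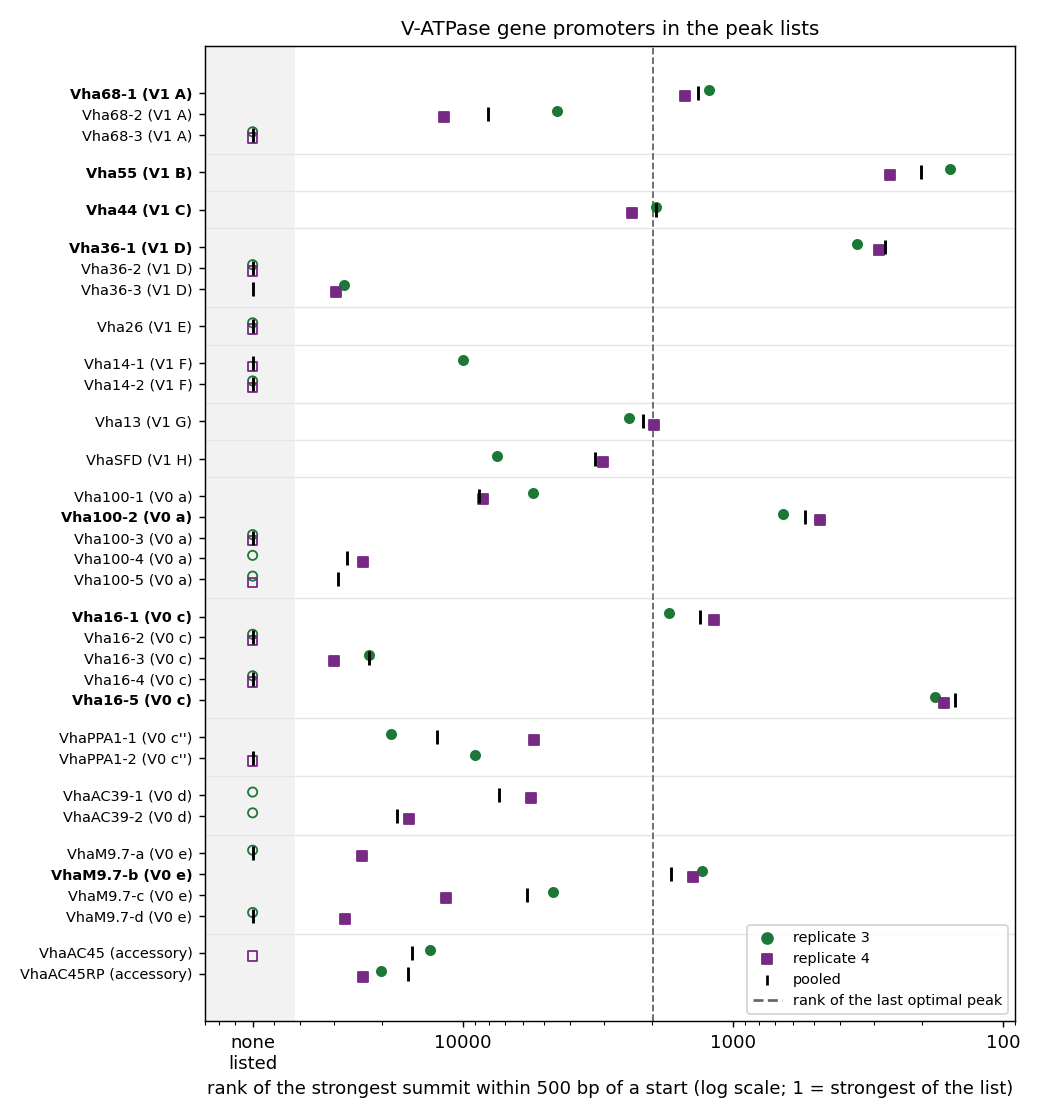
Rank of the strongest summit within 500 bp of a start of each of the 33 V-ATPase genes, by subunit, on a log axis where strong summits lie to the right. Circles are replicate 3, squares replicate 4 and bars the pooled list, open symbols and bars in the grey strip have no summit, and bold names are the 8 bound genes. The bound genes lie at or to the right of the dashed line at rank 1985 in the pooled list, and Vha13 lies just to its left.

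In V1, the strongest summits were at Vha55 and Vha36-1. Vha55 (FBgn0005671, 3R, 12623762 to 12627829, minus strand), the only gene of the B subunit, had a pooled signal of 191.5, rank 202 of the list, with 94.04 (rank 157) in replicate 3 and 98.73 (rank 263) in replicate 4. Vha36-1 (FBgn0022097, 2R, 15541435 to 15542498, plus strand) encodes the shaft subunit D, and its pooled signal was 167.3 (rank 273), with 66 (rank 348) in replicate 3 and 95.6 (rank 287) in replicate 4. Both were thus well inside the strongest 1000 peaks of each replicate. Vha68-1 (FBgn0265262, 2L, 13000770 to 13004107, minus strand), 1 of 3 genes of the catalytic A subunit, was lower, with 80.88 pooled (rank 1352), 35.27 (rank 1228) in replicate 3 and 48.46 (rank 1499) in replicate 4.

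Vha44 (FBgn0287825, 2R, 16324813 to 16336637, minus strand), the only gene of the stator subunit C, was the weakest of the bound genes. Its pooled signal of 67.49 (rank 1935) lay just above the lowest optimal signal of 66.85. It ranked 1934 in replicate 3, with a signal of 27.57, and 2371 in replicate 4, with 40.35. In replicate 4 it was therefore below the strongest 1985 peaks. The gene also lies next to the gene of the tagged protein: the end of CG4282 (FBgn0034114, 2R, 16322186 to 16324801, plus strand) is 11 bp from the end of Vha44, and the Vha44 summit is 11877 bp from the end of CG4282. Whether copies of this region in the transgene add to the signal at Vha44 was not tested. By TSS, the V-ATPase genes next nearest to the start of CG4282 were Vha16-4, at 626038 bp, and Vha14-1, at 642102 bp, so the other 7 bound genes are far from it or on other arms.

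The remaining V1 genes fell on the other side of the threshold. Vha13, the only gene of the peripheral stalk subunit G, missed it narrowly, with a pooled signal of 64.12 (rank 2156), 24.25 (rank 2433) in replicate 3 and 43.41 (rank 1956) in replicate 4. VhaSFD, the only gene of subunit H, had 52.47 pooled (rank 3251), 13.25 (rank 7468) in replicate 3 and 36.72 (rank 3037) in replicate 4. The only gene of the other peripheral stalk subunit, Vha26 (E), had no summit within 500 bp in any list. A pooled summit of 56.17 lay inside Vha26, 848 bp downstream of its TSS in a coding exon. Vha14-1 of the shaft subunit F had a summit of 11.56 in replicate 3 alone, and its copy Vha14-2 had none. An optimal peak with a signal of 120.6 had its summit 780 bp downstream of the Vha14-1 TSS, beyond the end of that gene. In all, 4 of 13 V1 genes were bound, and they encode 4 of the 8 V1 subunits.

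In V0, the strongest summit of all the V-ATPase genes was at a proteolipid gene. Vha16-5 (FBgn0032294, 2L, 10736319 to 10737043, minus strand) had a pooled signal of 216.2 (rank 151), with 87.92 (rank 178) in replicate 3 and 123.8 (rank 166) in replicate 4. Of the 13986 protein-coding genes, 1.04% had a higher promoter signal in the pooled list. Vha16-1 (FBgn0262736, 2R, 6625242 to 6633090, minus strand), another gene of the c proteolipid, was weaker, with a pooled signal of 82.09 (rank 1320) and 53.73 (rank 1173) in replicate 4. In replicate 3 its highest summit, 29.55 (rank 1729), lay in a coding exon near a different start, and the summit at the place of the optimal one had 24.75 (rank 2347). The replicates therefore gave Vha16-1 its highest summit at places 958 bp apart.

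Vha100-2 (FBgn0028670, 3R, 18390323 to 18399169, minus strand), 1 of 5 genes of the a subunit, had a pooled signal of 126.4 (rank 539), with 50.25 (rank 651) in replicate 3 and 79.29 (rank 478) in replicate 4. The optimal summit was at its inner start, 276 bp upstream, and not at the outer start, whose position is −2241 bp from the inner one. VhaM9.7-b (FBgn0028663, 3L, 21539862 to 21541215, plus strand) of the small e subunit had 72.13 pooled (rank 1694), 34.5 (rank 1298) in replicate 3 and 49.78 (rank 1411) in replicate 4. Here too the replicates disagreed on the place, since the highest summit of replicate 3 lay at −359 bp from the TSS and that of replicate 4 at 289 bp, in an intron, 648 bp apart. In all, 4 of 18 V0 genes were bound, and they encode 3 of the 5 V0 subunits.

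Of the unbound V0 genes and the accessory genes, most had weak summits or none. Pooled signals were 40.87 at VhaM9.7-c (e), 37.15 at VhaAC39-1 and 26.28 at VhaAC39-2 (d), 34.77 at Vha100-1 (a), 30.16 at VhaPPA1-1 (c''), 23.55 at Vha16-3 (c), 21.59 at Vha100-4 and 20.76 at Vha100-5 (a). The accessory genes VhaAC45 and VhaAC45RP had 27.72 and 27.34. The pooled list runs from 20.41 to 1065, and VhaM9.7-c, VhaAC39-1, Vha100-1 and VhaPPA1-1 were above its median of 28.06 while the others named were under it. In V1, the A subunit gene Vha68-2 had 35.86. VhaM9.7-a and VhaM9.7-d had a summit in replicate 4 alone, VhaPPA1-2 in replicate 3 alone, and Vha36-3 in both replicates but not in the pooled list. Vha100-3, Vha14-2, Vha16-2, Vha16-4, Vha26, Vha36-2 and Vha68-3 had none in any list.

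The replicates gave much the same set of V-ATPase genes. Among the 1985 strongest peaks of replicate 3 were summits at 8 V-ATPase genes (24.2%, against 11.6% of protein-coding genes), and these were the 8 bound genes. Vha16-1 and VhaM9.7-b were among them only through a summit at another place than the optimal one. Their replicate 3 summits nearest the optimal one ranked 2347 and 2998, so the counts here are of genes and not of sites. Among the 1985 strongest of replicate 4 were summits at 8 as well (24.2%, against 11.3%), with Vha13 in place of Vha44. The 7 genes in both sets were 21.2% of the V-ATPase genes, against 8.04% of protein-coding genes. The optimal list was itself made from these libraries, so this is no independent repeat.

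The replicates also gave most of these genes like signals, once their scales were aligned. Over the 5494 protein-coding genes with a summit in both replicates, log2 signal in replicate 3 minus that in replicate 4 had a median of −0.77 and an SD of 0.65. Relative to that median, Vha55 was 0.70 higher in replicate 3. VhaPPA1-1 was lower in replicate 3 by −1.03 and VhaSFD by −0.70. The VhaPPA1-1 values came from places 501 bp apart, at −309 bp from the TSS in replicate 3 and 192 bp in replicate 4. That difference is therefore not one at 1 site. The other V-ATPase genes with both values lay between −0.39 and 0.35, less than 1 SD from the median. Among these, the values of Vha16-1, VhaM9.7-b and Vha68-2 came from places 958, 648 and 232 bp apart in the replicates. VhaPPA1-1, VhaSFD and Vha55 thus departed by more than the SD over all these genes. For Vha55 this depends on the genes it is set beside: its difference was −0.07, and the 1591 bound genes among them had a median of −0.49 and an SD of 0.57, so it lay within 1 SD of those.

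**Figure D2:**
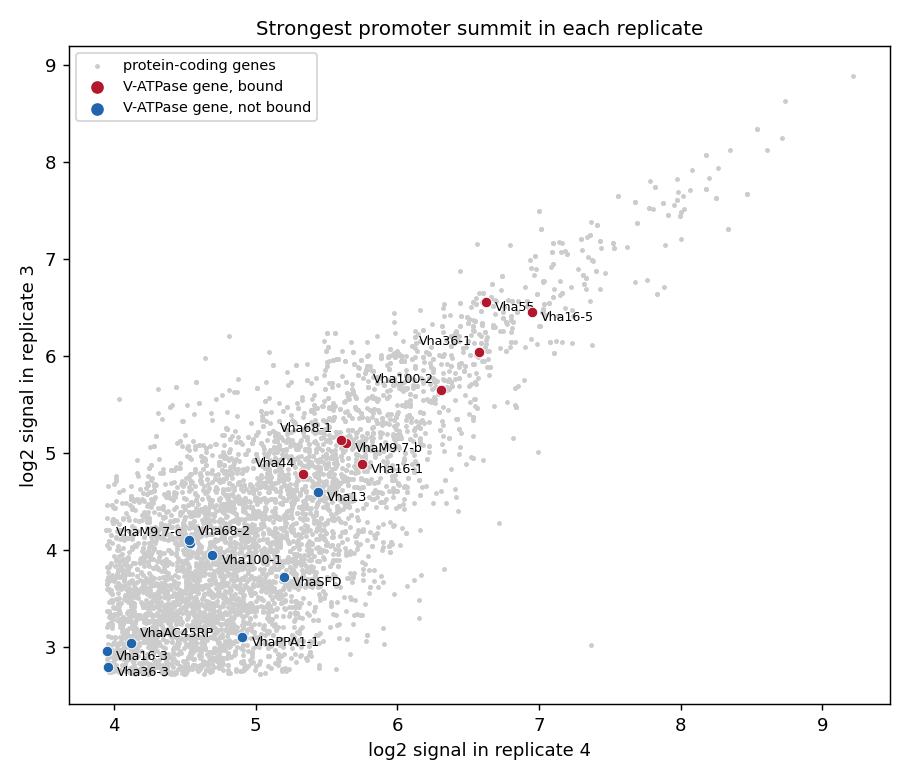
Log2 of the strongest promoter signal in replicate 4 (horizontal axis) and replicate 3 (vertical axis) for the 5494 protein-coding genes with a summit in both, with the 17 V-ATPase genes among them in colour. Red points are bound genes and blue points unbound ones. The bound genes run from Vha44 to Vha55 and Vha16-5 along the main cloud, and VhaSFD and VhaPPA1-1 lie towards its lower edge.

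Within subunits that have several genes, the copies differed in binding. Of the 8 such V1 and V0 subunits, with 26 genes, A, D, a and e had 1 bound copy each, c had 2, and F, c'' and d had 0. Of the 5 subunits with a single gene, 2 were bound, B and C. To compare copies, log2 ratios of their signals were taken within each replicate list. Of 36 pairs of copies, 7 had a value for both copies in both replicates, and in these 7 the gene that was higher in the pooled list, or alone in it at Vha36-1, was higher in each replicate. A pair with values in replicate 3 only went the other way there: VhaPPA1-1, higher in the pooled list, had 8.625 and VhaPPA1-2 12.11 in replicate 3, a log2 ratio of −0.49. The pooled list holds both replicates, so that order is not independent of them. With 2 replicates the exact two-sided sign-flip permutation test cannot give a p below 0.5, so no difference between copies can pass a threshold here.

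The A subunit gives the closest pair in sequence. Vha68-1 and Vha68-2 proteins were 91.9% identical in an alignment of the translated annotated coding sequences. Signals in replicate 3 were 35.27 at Vha68-1 and 17.18 at Vha68-2, and in replicate 4 they were 48.46 and 23.06. The log2 ratio was 1.04 in replicate 3 and 1.07 in replicate 4, a mean of 1.05 ± 0.02 (SD, n = 2). The Vha68-2 values came from places 232 bp apart. They lay at −170 bp from the nearest TSS in replicate 3 and 20 bp, in annotated 5′ UTR sequence, in replicate 4. This SD therefore does not measure the spread at 1 site. All 3 A subunit genes lie on arm 2L within a short distance: Vha68-2 and Vha68-3 are 178 bp apart on the same strand, and Vha68-1 lies 19476 bp beyond Vha68-3 on the other strand. Vha68-3, which had no summit, was 72.1% identical to Vha68-1.

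The D and c subunits had the widest gaps between copies. Vha36-1 and Vha36-3 proteins were 85% identical, yet the signal of Vha36-3 was 6.964 in replicate 3 and 15.55 in replicate 4, near the lowest of each list. The log2 ratio of Vha36-1 to Vha36-3 was 3.24 and 2.62 in the replicates, a mean of 2.93 ± 0.44 (SD, n = 2). The most diverged D gene, Vha36-2, was 38% identical to Vha36-1 and had no summit. Of the c proteolipids, Vha16-5 exceeded Vha16-1 by a log2 ratio of 1.57 and 1.20 in replicates 3 and 4. Vha16-1 in turn exceeded Vha16-3 by 1.92 and 1.80, although these were the most alike of the c copies at 83.4% identity. In replicate 3 the Vha16-1 value was the 29.55 near a different start, and not the 24.75 at the place of the optimal summit. Vha16-5, with the strongest summit, was 67.9% identical to Vha16-1 and, with 193 residues, is the longest c copy. Vha16-2, which lies 985 bp from Vha16-3, and Vha16-4 had no summit.

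The a and e subunits followed the same form, with 1 bound copy each. Vha100-2 exceeded Vha100-1, the form known from neurons, by a log2 ratio of 1.70 in replicate 3 and 1.61 in replicate 4 (mean 1.66 ± 0.06, SD, n = 2). The copy most like Vha100-2, Vha100-5, at 68% identity, had only a pooled summit of 20.76 near the bottom of the list. Vha100-4, 66% identical, lies 517 bp downstream of Vha100-2 on the same strand with no protein-coding gene between them, and had 21.59. VhaM9.7-b exceeded VhaM9.7-c by 1.04 and 1.10 (mean 1.07 ± 0.05, SD, n = 2), and the proteins were 44.6% identical. The VhaM9.7-b values came from different places, −359 bp from the TSS in replicate 3 and 289 bp in replicate 4. The SD therefore does not measure the spread at 1 site. The replicate 3 summit nearest the optimal one, at 193 bp, had 21.51, beside 16.83 at VhaM9.7-c. In the D and c families, then, the copies with the most alike proteins still differed, by mean log2 ratios of 2.93 and 1.86. In c, the gap was wider between the less alike Vha16-5 and Vha16-3, at 69.4% identity, with a mean of 3.25. The most alike pair of all, Vha68-1 and Vha68-2, had the lowest mean of the 7 pairs, 1.05. In all 7 pairs the higher gene was a bound one, called from the same signals, so these ratios describe the copies and test nothing.

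Most bound V-ATPase promoters were shared with a gene that starts on the opposite strand. At 6 of the 8 bound genes (75%) the optimal summit was also within 500 bp of such a start, against 55.9% of the 1595 bound protein-coding genes. The partners were CG12299 at Vha16-5, Snx3 at Vha55, CG8187 at Vha36-1, Vti1b at Vha100-2, mTor at Vha68-1 and Hmgs at Vha44. Snx3 encodes a sorting nexin and Vti1b a SNARE protein, both of endosomal membrane traffic, mTor encodes the growth kinase that is activated on lysosomes, and Hmgs encodes HMG-CoA synthase. Because 1 summit serves both starts, these data cannot tell which gene of a pair it belongs to.

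The distances show how closely the paired starts lie. At Vha36-1 the starts are 72 bp apart, and the summit lay 27 bp upstream of Vha36-1 and 45 bp from the start of CG8187. At Vha44 and Hmgs, 123 bp apart, the summit lay 41 bp upstream of Vha44. At Vha55 and Snx3, 202 bp apart, it lay 114 bp upstream of Vha55 and 88 bp from Snx3. In each of these pairs the summit was between the starts. The strongest summit, at Vha16-5, was 296 bp upstream of that gene but 6 bp from the start of CG12299. At Vha100-2 the summit was 209 bp downstream of the start of Vti1b, in annotated 5′ UTR sequence. At Vha68-1 and mTor, 373 bp apart, it was 86 bp from Vha68-1 and 287 bp from mTor. By distance, 3 of the 8 summits (37.5%) were nearer to another gene, those at Vha16-5, Vha55 and Vha100-2, against 28.1% of bound protein-coding genes.

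**Figure D3:**
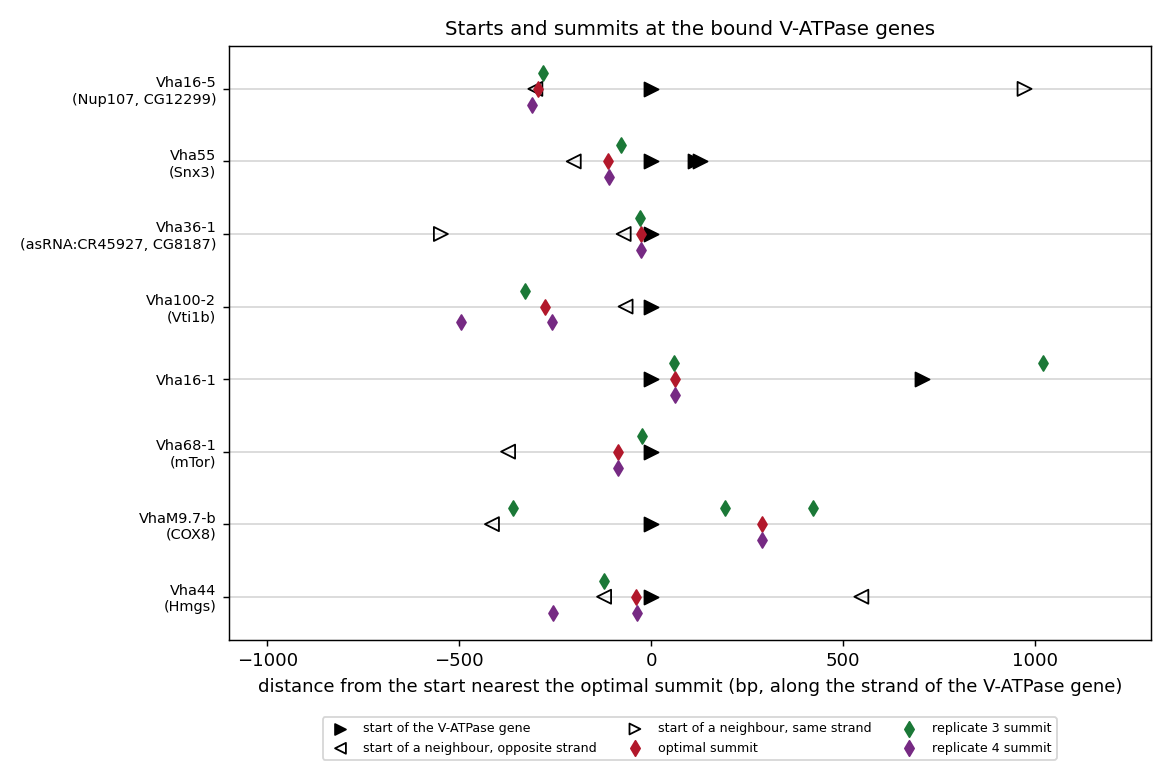
Position of the summits at the 8 bound V-ATPase genes, strongest at the top, in bp from the start nearest the optimal summit along the strand of the V-ATPase gene. Filled triangles are starts of the V-ATPase gene, open triangles starts of neighbours (named under the gene, pointing along their strand), and diamonds the optimal summit (red) and all summits within 500 bp of a start of the gene in replicate 3 (green, above) and replicate 4 (purple, below). A further start and the summits near it lie outside the axis at Vha100-2 and Vha44. The summits of Vha36-1, Vha55 and Vha16-5 agree to within 32 bp between replicates, and those of Vha16-1 and VhaM9.7-b spread widest.

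The share of bound V-ATPase genes also differed by paired starts when only the annotation was used to find them. Of 13 V-ATPase genes with an opposite-strand start within 500 bp of one of their TSSs, 7 were bound (53.8%), and of the 20 without one, 1 was bound (5%), which was Vha16-1. Among all protein-coding genes the shares were 21.6% of 4305 and 6.85% of 9681, so the direction was the same across the genome. The seventh bound gene with such a start was VhaM9.7-b. Its neighbour COX8, a gene of cytochrome c oxidase, starts at −415 bp, too far from the optimal summit to share it. The highest replicate 3 summit of VhaM9.7-b, at −359 bp, was nearer to the COX8 start than to that of VhaM9.7-b. So was a weaker pooled summit of 44.73, at −378 bp. Of the unbound genes, Vha100-1 shared its pooled summit with dgt6 and VhaAC45 with Gnptab. Summits lay upstream of the TSS at 6 of the 8 bound genes (75%, against 81.8% of bound protein-coding genes), with those of Vha16-1 and VhaM9.7-b downstream.

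**Figure D4:**
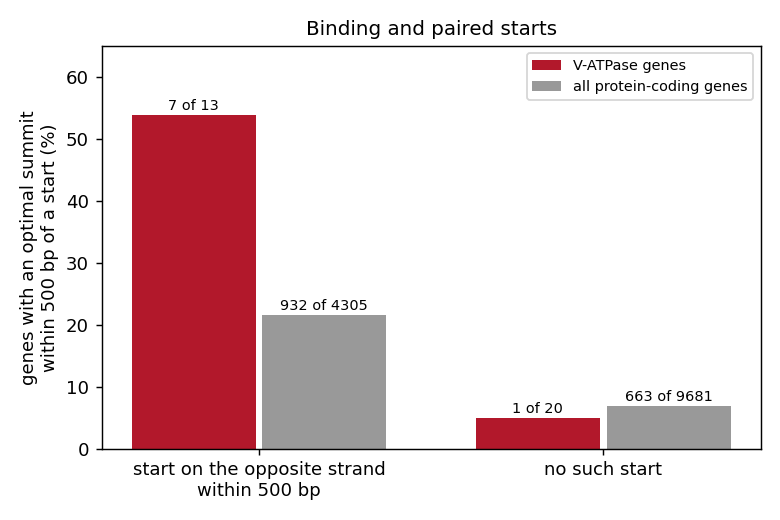
Percentage of genes with an optimal summit within 500 bp of a start, for genes with and without a start on the opposite strand within 500 bp, in V-ATPase genes (red) and all protein-coding genes (grey). The bound genes and the genes counted are printed over each bar, and both pairs of bars are higher on the left.

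Sequence words at the summits were searched on both strands of each summit and the 50 bp on either side, beside the 1140 different optimal summits of bound protein-coding genes. The BEAF-32 core CGATA was at 3 of the 8 bound summits (37.5%, against 27.5%), those of Vha16-5, Vha36-1 and Vha68-1, and its middle lay 6, 16 and 21 bp from the summit. GAGAG was at Vha100-2 and Vha55 (25%, against 11.9%), 32 and 46 bp from the summit. The 13 V-ATPase genes with a pooled summit that were not bound had similar shares: CGATA was at 3 of their summits (23.1%; Vha100-4, Vha16-3 and Vha68-2) and GAGAG at 3 (23.1%; Vha68-2, VhaAC39-1 and VhaAC45). The word CAACACTG was at Vha36-1 and Vha44 (25%, against 5.26%), 9 and 17 bp from the summit. Of the 13 unbound V-ATPase summits, 1 held it (7.69%), that of VhaM9.7-c, 19 bp from the summit. No bound summit held the DREF site TATCGATA (6.49% of the 1140), the overlapping word ATCGATAG (7.19%), CACAGTGG (4.39%), TATAAA (11.7%) or the core promoter element called Motif 1 (1.32%). With 8 summits each such share rests on a few genes, and a match is not shown to be a site. Vha68-2, which is not bound, held CGATA 42 bp from its pooled summit, as printed above.

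The M-box was searched as the palindrome TCACGTGA, and only exact matches to this word were counted. It was at the optimal summits of Vha16-1 and Vha44. These were the only 2 of the 1140 bound summits (0.175%) that held it in this window. At Vha44 its middle lay 3 bp from the optimal summit, and at Vha16-1 34 bp. The replicates differed in this. The middle of the Vha44 M-box lay at −44 bp from the TSS, with the highest summit at −37 bp in replicate 4 and −124 bp in replicate 3. At Vha16-1 the replicate 3 summit at this place was not its highest. The shorter E-box CACGTG, contained in it, was at the same 2 genes (25%) and at 1.67% of the 1140. Of 5855 different pooled promoter summits, 5 held the M-box (0.0854%), the others being at CG16779, CG14357 and LSm3. Their optimal peaks ranked 1320 (Vha16-1) and 1935 (Vha44) of 1985, and Vha44 lies beside the tagged gene, as given above. Mitf itself had no summit within 500 bp of a start.

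In a search added after these windows were seen, the same M-box word was looked for within 500 bp of every TSS, bound or not. It was near 3 of the 33 V-ATPase genes (9.09%) and near 107 of all protein-coding genes on the arms (0.767%). The third gene was Vha68-2, whose M-box lay 96 bp upstream of an inner start, outside annotated exons, and 231 bp from the nearest pooled summit, a weak one of 21.67. It is shown with its flanks and the M-box in capitals (chr2L:12975273-12975340, plus strand, dm6).
Vha68-2: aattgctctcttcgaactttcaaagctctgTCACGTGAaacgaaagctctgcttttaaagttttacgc
Across the genome, 15 of the 107 genes with the word were bound (14%), against 11.4% of the 13838 without it, and this difference was not tested. Of the 3 V-ATPase genes with an M-box, 2 were bound, and no test was made on so few.

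Genes of related function were counted in the same way. The mitochondrial ATP synthase is the other rotary ATPase of the cell, and 15 genes have a symbol that begins with ATPsyn. Of these, 0 were bound, where 11.4% of protein-coding genes were, a difference that 15 genes are too few to show. A pooled summit was near 10 of the 15 (66.7%, against 51.4%), and their highest pooled signal was 61.69 at ATPsynC. The prefix leaves out ATP synthase genes with other symbols, such as blw of the alpha subunit, which was bound. The count therefore does not cover the whole enzyme. Of 27 genes of lysosome function and the mTORC1 pathway, 7 were bound (25.9%, against 11.4% of protein-coding genes). These were mtd with a pooled signal of 160.3, the Ragulator genes Lamtor5 with 115.7 and Lamtor3 with 88.07, the lysosomal thioesterase Ppt1 with 82.19, the cathepsins CtsF with 80.45 and CtsL1 with 70.65, and the late endosomal GTPase Rab7 with 70.77. Other genes also start within 500 bp of some of these summits: fws at Lamtor3, Ogg1 at Ppt1, Epp at Rab7, Rpn13 at CtsL1 and asRNA:CR44019 at CtsF. These data cannot tell which gene such a summit belongs to. Lamtor1, Lamtor2 and Lamtor4, the other Ragulator genes, were not bound, with 27.33, 48.17 and 46.97. The kinase gene mTor is not among the 27, since it was listed as Tor, a symbol that the annotation does not use. It was bound, through the summit that it shares with Vha68-1. The count in this list differed between replicates: summits among the strongest 1985 peaks of replicate 4 were at 8 of the 27 genes (29.6%), against 4 (14.8%) in replicate 3, where 11.6% of protein-coding genes had one. CtsF, CtsL1 and Rab7 ranked 2191, 3460 and 2074 in replicate 3, outside its strongest 1985 peaks. The V-ATPase genes had 8 in each replicate, and no difference between the lists was tested.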

How the data were processed

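ChIP-seq of the GFP-tagged CG4282 protein was analysed from 2 libraries (biological replicates 3 and 4) of 1 group. Per the labels, chromatin was sonicated to 200 to 800 bp. Per the deposited file listing, the relaxed lists were made from the alignments of each replicate, or of both pooled, with 1 control file, and the optimal list was derived from them by irreproducible discovery rate. No aligner, caller or cutoff is named there or in the labels (not given in the sources used here). The value used is the deposited signal of each peak, an enrichment value set by the authors' caller, compared within a list only. Coordinates are dm6 and 1-based, and the dm3 lists were not used. Read counts were not used, so the depth is unknown and gives no interval.

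Starts came from Ensembl release 115 (BDGP6.54), and sequences from RefSeq's Release 6 genome, the same assembly as dm6. Every summit within 500 bp of any start of a gene was counted for that gene. Coding sequences were translated and aligned globally with Biopython 1.88; other steps used Python 3.11.15 with NumPy 2.4.6 and matplotlib 3.10.9. Assignment of summits to genes was tested on simulated peaks. The text names all V-ATPase genes, the bound genes of the ATPsyn and lysosome lists, and genes starting beside the summits of either. For the lysosome list 27 of 30 listed symbols matched, and Vma21, Tor and FLCN did not. ATPsynC, blw, unbound Ragulator genes, Mitf, COX8 and 3 genes with an M-box were named after their values were seen. Members and lists were chosen with earlier results of these data known. The labels call the replicates biological and do not say how the embryos were collected for each, so the spread covers these 2 libraries only.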

Additional observations from a re-analysis of the deposited data

How the results depend on the processing

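The number of bound V-ATPase genes was 8, and 5 with a window of 250 bp, which lost Vha100-2, Vha16-5 and VhaM9.7-b (9.5% of protein-coding genes bound). It was 4 with the strongest 1000 optimal peaks, which lost Vha16-1, Vha44, Vha68-1 and VhaM9.7-b (6.26%). It was 9 with 1000 bp, which added Vha14-1, 8 with any overlap of the peak, and 7 with only the outermost start, which lost Vha100-2. With either replicate left out it was 8. The count with a pooled summit was 21 and ranged from 15 to 26 over these choices, and from 20 to 22 with 1 replicate left out. The median log2 pooled signal of genes with a summit, 5.35, ranged from 5.28 to 5.60. Their median percentile among genes with a summit was 52.1 and, with 1 replicate left out, from 55.3 to 57.8. Of the 7 paralogue pairs with values in both replicates, 7 kept their direction at 1000 bp. At 250 bp 5 had no value, and Vha68-1 over Vha68-2 and Vha36-1 over Vha36-3 kept theirs. With 25 bp on either side of the summit in place of 50 the M-box and CACGTG were each at 1 bound summit and GAGAG at 0, and with 100 bp on either side TATCGATA and TATAAA were each at 1. No paired analysis was possible because there was 1 group.

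Limits are the lack of control and untagged libraries among the samples, the unknown depth, 2 replicates, and summits that several starts share.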
